A study of Danio rerio with 27 samples.

Results

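The adult zebrafish spleen was compared with 8 other organs in RNA-seq libraries of poly(A)-selected, strand-specific RNA. The spleen was represented by 3 of the 27 libraries, chosen because their labels name that tissue, and brain, heart, intestine, liver, muscle, skin, tail and testis had 3 libraries each. All 27 came from adult wild-type TLAB fish, with no treatment and no altered allele in any group, so tissue was the only labelled difference. Whole organs were lysed, so each library pools every cell type of the dissected piece. The labels do not say whether the 3 libraries of a tissue came from separate fish, and all p-values therefore cover the spread between these samples, which may be partly technical.

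The spleen filters blood. Its macrophages remove old red cells and particles and return the iron of haem to the circulation, and in fish it also holds large stores of erythrocytes and thrombocytes, the nucleated counterparts of mammalian platelets. It is in addition a secondary lymphoid organ with B cells, T cells and antigen-presenting cells, set in a stroma of reticular cells and specialised endothelium. In adult zebrafish the main site of blood formation is the kidney marrow, which is not among the tissues here.

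Gene levels are given as TPM, a transcript abundance that is corrected for gene length and sums to 1000000 in each library, so a gene's TPM falls when others take more of the library. Each spleen gene was compared with the mean of the 8 other tissue means on log2(TPM + 1), a scale that understates the change of low genes, in a limma fit over all 27 libraries. A gene was called higher or lower at a Benjamini-Hochberg adjusted p under 0.05 and an absolute log2 difference of at least 1. The spleen libraries held 11443821, 5100481 and 11000116 estimated counts for replicates 1, 2 and 3, so replicate 2 was the shallowest of the 27. Of the other 24 libraries, 23 held 5512418 to 14151312 counts and testis replicate 3 held 91119844. At a level of at least 1 TPM, 16635, 14705 and 16094 genes were found in the 3 spleen libraries.

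A few genes took a large part of each spleen library, and the genes differed between replicates. The 10 largest genes held 17.9%, 40.6% and 23.1% of the estimated counts in spleen replicates 1, 2 and 3, against 4.60% to 22.6% in the 24 other libraries (median 18.3%). Replicates 2 and 3 therefore lay above every other library and replicate 1 lay within their range. Over the 3 replicates, 14 genes entered a list of the 10 largest, and 6 genes were in all 3 lists. Haemoglobin chains made up 4 of the 14. Another 6 belonged to a set of 7 features that moved together, of which the RefSeq table annotates zgc:158463 as ribosomal RNA, while the other 6 joined it by their levels alone. The remaining 4 were actb2 (cytoplasmic actin), RPLP0 (a ribosomal protein), eef1a1l1 (a translation elongation factor) and CELA1 (a pancreatic elastase).

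In replicate 1 the largest gene was the haemoglobin chain si:ch211-5k11.8 with 3.57% of the counts, followed by the haemoglobin chain HBE1 (ENSDARG00000089087) with 3.26%. Behind these came zgc:158463 with 2.65%, si:dkey-153m14.1 with 2.46% and hbaa1, an alpha chain of adult haemoglobin, with 1.67%. In replicate 2 the order was led by si:dkey-153m14.1 with 14.1% and zgc:158463 with 13.2%. ENSDARG00000116076 with 2.65%, si:ch211-5k11.8 with 2.09% and the same HBE1 gene with 1.95% followed. Replicate 3 was likewise led by si:dkey-153m14.1 with 6.31% and zgc:158463 with 5.46%, and then held hbaa1 with 2.31%, the HBE1 gene with 2.18% and si:ch211-5k11.8 with 1.77%. Haemoglobin thus led in replicate 1 and members of the 7 features in replicates 2 and 3. The Wilson 95% interval of the leading share was 3.56% to 3.58% in replicate 1, 14.05% to 14.11% in replicate 2 and 6.3% to 6.32% in replicate 3, and such intervals cover counting error only.

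**Figure D1:**
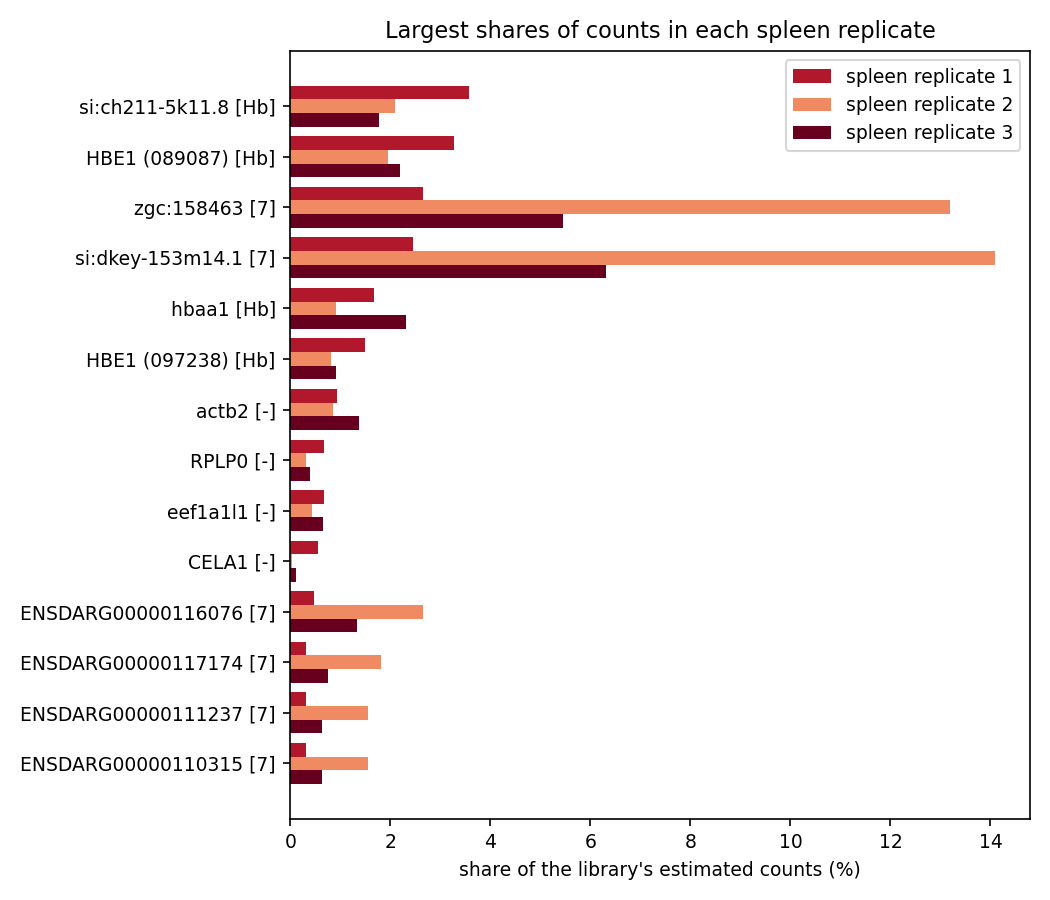
The 14 genes that were among the 10 largest in any spleen replicate, with their share of estimated counts in percent of the library total on the horizontal axis and 1 bar per gene and replicate. Digits after HBE1 are the end of the gene ID, and tags mark haemoglobin chains [Hb], the 7 features [7] and other genes [-]. The haemoglobin chain si:ch211-5k11.8 has the longest bar of replicate 1 (3.57%), and si:dkey-153m14.1 (14.1% and 6.31%) and zgc:158463 (13.2% and 5.46%) have the longest of replicates 2 and 3.

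Together the haemoglobin chains took 10.2%, 5.89% and 7.54% of the counts in the 3 spleen libraries, against 0.0013% to 3.67% in the others. The 7 features took 6.64%, 35.5% and 15.5%, against 1.40% to 7.45% elsewhere, so that replicate 1 lay within the range of the other tissues and replicates 2 and 3 lay above it. The 7 were picked after their values were seen, as genes among the 20 largest of replicate 2 that stood at least 4 times higher there than in replicate 1. In TPM their sum was 90796.5, 405536 and 207566, which is that much of 1000000 not available to other genes. Because of this, the counts of higher and lower genes, overall and in each list, are also given after both sets were removed and TPM rescaled to 1000000, called "rescaled" from here on. Of the 7, 1 pair (ENSDARG00000111237 and ENSDARG00000110315) had identical counts in every library.

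Of 25245 genes tested, 2386 (9.45%) were higher in spleen than in the mean of the other tissues and 3963 (15.7%) were lower, with a median log2 difference of -0.20 over all genes. After rescaling the balance turned, with 5970 genes (23.7%) higher, 2898 (11.5%) lower and a median of 0.24. Higher genes made up 37.6% of the calls before and 67.3% after rescaling. A set of 1901 of the higher and 1808 of the lower genes was called the same way under each of 8 scalings and tools. Values below come from the original TPM and are to be read against the median of -0.20. So does the order of the spleen replicates for a gene, which can change with the scaling. Counts of list members are to be read against 9.45% higher and 15.7% lower genes, or 23.7% and 11.5% after rescaling. In whole-tissue RNA, fewer cells of a type and less RNA per cell cannot be told apart.

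A stricter count took the genes that were higher in spleen than in each of the 8 tissues, by 8 pairwise contrasts of the same fit. It held 535 genes (2.12% of those tested), of which 482 had all 3 spleen values above all 24 others, and 956 after rescaling. The 482 were counted within a set already chosen for high spleen values, where a lack of overlap is largely built in. Of the 535, 83 would not have passed the filter on low values without the spleen libraries, and the same held for 253 of the 25245 genes tested. The spleen level of the 535 ranged widely, with quartiles of 8.54, 20.3 and 63.2 TPM. Heart was the next highest tissue for 162 of them (30.3%), testis for 99 and brain for 91, and liver, with 11, was the least frequent. The gene lists described below held 74 of the 535, of which 1, SLC20A1, belonged to a list of another organ (kidney tubule).

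The 10 genes with a symbol and the largest difference in this set were led by si:dkeyp-3b12.11, at 118, 1472 and 4179 TPM in spleen replicates 1, 2 and 3 and at 0 to 73.2 TPM in the other 24 libraries. All 3 spleen values lay above all others, but they spanned a wide range and the log2 difference of 9.33 ± 1.01 (SE) has the largest error of the 10. A similarly named feature, si:dkeyp-3b12.10, belongs to the 7 features and was also lowest in replicate 1 (7423, 30369 and 17701 TPM). Whether they are related was not tested. CREG1, a secreted glycoprotein, stood at 2620.2, 1131 and 1138 TPM against at most 226 TPM elsewhere (log2 difference 6.07 ± 0.23). The fatty acid-binding protein gene fabp10b reached 407, 168 and 317 TPM against at most 44.4 TPM. Its 3 spleen values did not overlap with any other library, and heart was again the next tissue. The uncharacterised genes si:ch211-103n10.5, si:ch73-55i23.1 and si:ch211-250g4.3 had log2 differences of 6.59, 6.54 and 6.33, each with replicate 1 highest and heart next. The uncharacterised si:dkey-78l4.6 had instead its highest value in replicate 3, with 166, 131 and 440.4 TPM against at most 16.9 TPM. The other 3 genes were nt5c2l1, alas2 and gp9, which belong to the blood lists below.

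Among genes of spleen formation and stroma, TLX1 set the spleen apart most cleanly. TLX1 encodes a homeobox factor without which mice form no spleen. It stood at 62.2, 29.2 and 39.6 TPM in spleen, while the 24 other libraries ranged from 0 to 0.859 TPM with a median of 0.0637 TPM. No library of another tissue came near the lowest spleen value, and the log2 difference was 5.24 ± 0.13 (SE, limma adjusted p = 6.5e-18). Since no other library reached 1 TPM, TLX1 passed the filter on low values through spleen alone, and its p-value adds no support. NKX2-3, another homeobox gene needed for normal spleen architecture in mice, was at 39.8, 34.1 and 58.6 TPM, against at most 5.29 TPM, with intestine the next tissue at 3.79 ± 1.5 TPM (SD, n = 3). This gene was singled out after its values were seen, and its log2 difference was 4.96 ± 0.15.

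TCF21, a basic helix-loop-helix factor also required for the spleen in mice, varied more, with 115, 15 and 65.6 TPM. Its replicate 2 value lay below the highest other library (29.6 TPM, with heart the next tissue), so the groups overlapped, although TCF21 was higher than in each other tissue by the pairwise tests (log2 difference 4.53 ± 0.36). The other members above each tissue were PDGFRA and PDGFRB, growth factor receptors of stromal cells and pericytes, and PDGFRB was at 68.4, 42.8 and 78.7 TPM against at most 19.1 TPM. CXCL12, a chemokine that retains blood cells, was at 196, 199.8 and 287 TPM against at most 135 TPM. Its groups did not overlap, but tail was too near for the strict count. WT1 was called higher (log2 difference 3.25 ± 0.22), as were pbx1a, pbx1b, cxcl12b, NR2F2, nfkb2 and relb.

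In the whole list of 22 spleen formation and stroma genes, all tested, 12 were higher and 4 were lower, against 9.45% and 15.7% of all genes, with a median log2 difference of 1.35. The lower members were FOXC1, foxc1b, ccl25a and ccl19b, and the first 3 were no longer called after rescaling, when 14 were higher and 1 lower. The call of foxc1b was also lost without spleen replicate 2 or 3 (log2 differences -0.88 and -1.02) and that of ccl25a without replicate 2 (-0.94). NKX3-2, a homeobox gene of early spleen development in mice, was at 2.25, 0.866 and 0.96 TPM and was not called, and its highest tissue was testis at 11 ± 1.63 TPM. Of the 22 genes, 2 would not have passed the filter without spleen, TLX1 among them. The list summed to 782, 564 and 851 TPM in spleen and overlapped with tail at 666 to 919 TPM.

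**Figure D2:**
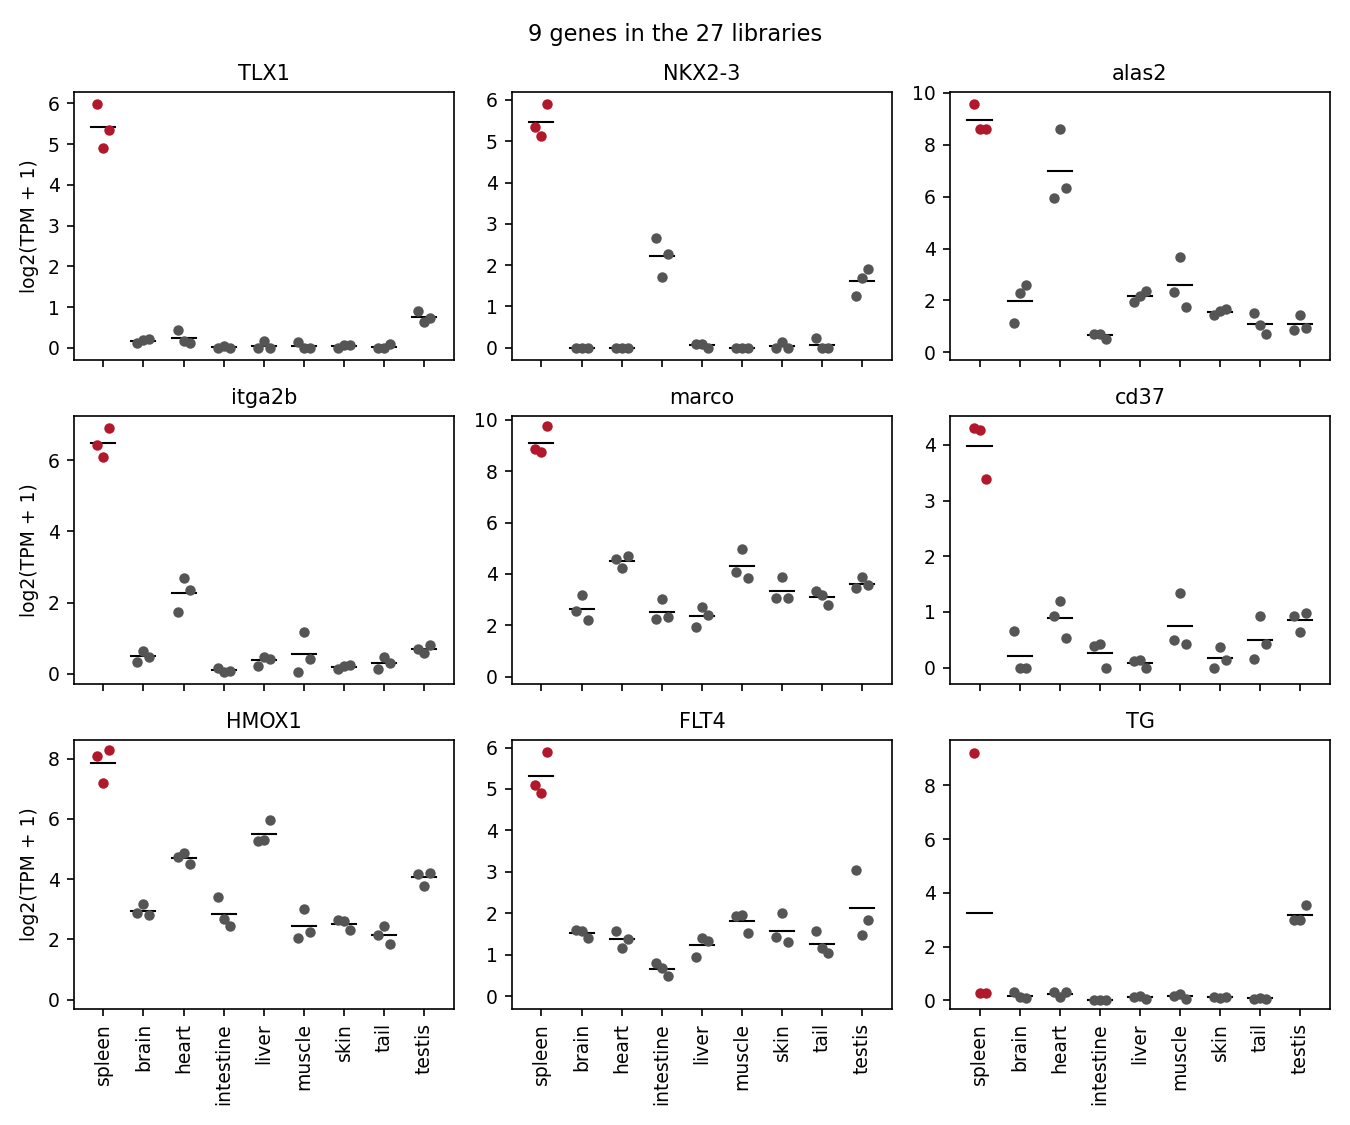
Levels of 9 genes in all 27 libraries as log2(TPM + 1) on the vertical axis, with 1 panel per gene, tissues along the horizontal axis, 1 point per library (spleen in red) and a line at each tissue mean. For TLX1 the spleen points sit at 29.2 to 62.2 TPM and all others at or below 0.859 TPM, whereas TG has 1 high spleen point (594 TPM) and 2 spleen points at the level of most other tissues.

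Haemoglobin genes were high in all 3 spleen libraries. Their summed level was 252099, 119745 and 177075 TPM in spleen. Heart followed with 23910.4, 104545 and 25285 TPM, where heart replicate 2 stood apart from the other heart libraries, and no library of another tissue came above heart replicate 2. Of 17 haemoglobin genes 14 were tested, 9 were called higher and none lower, with a median log2 difference of 4.64. Because these genes fix their own share of the library, no rescaled call exists for them.

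The alpha chain gene hbaa1 was at 41389, 18405 and 53754 TPM in spleen, against a median of 154 and a highest value of 17882 TPM in the others. Its groups just failed to touch, the nearest library being heart replicate 2, and the log2 difference from the mean of the tissues was 7.67 ± 0.63. Against heart alone the difference was 2.095 with an adjusted p of 0.057 in limma, which misses the threshold, and without heart replicate 2 the gene was higher than in each tissue. The same held for si:ch211-5k11.8 and the HBE1 genes ENSDARG00000089087 and ENSDARG00000097238. In consequence 2 haemoglobin genes were higher than in each of the 8 tissues (hbae4 and hbae5), and 6 were so without heart replicate 2. The gene hbae4 was at 299, 126 and 127 TPM against at most 39.6 TPM. Genes at the low end, such as hbbe3 (0, 0 and 0 TPM), hbae1.1 and hbae3, were not called and had testis as their highest tissue.

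The erythroid list, which holds enzymes of haem synthesis, membrane proteins and transcription factors of red cells, moved with haemoglobin. All 32 genes were tested, and 22 were higher, 1 was lower and 13 were higher than in each tissue (against 2.12% of all genes), with a median log2 difference of 3.92 against -0.20 over all genes. After rescaling 25 were higher and 1 lower. Their summed level was 6592, 3427 and 3008 TPM in spleen, above all other libraries, of which heart replicate 2 came closest at 2892 TPM. The other heart libraries had 571 and 770 TPM. Heart was the next tissue for 15 of the 22, and spleen replicate 1 held the highest spleen value for all 22.

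Among the enzymes, alas2, which starts haem synthesis in red cells, was at 764, 389.7 and 392 TPM. Heart replicate 2, at 393 TPM, lay just inside the spleen range, while the median of the others was 2.1 TPM. The log2 difference was 6.67 ± 0.39 from the mean of the tissues and 1.96 from heart (adjusted p = 0.0051). The carbonic anhydrase gene cahz was at 1081, 594 and 466 TPM and overlapped in the same way with heart replicate 2 (513 TPM). The nucleotidase gene nt5c2l1, at 1103, 465 and 682 TPM, did not overlap, since its highest other library had 155 TPM. Most later haem enzymes were near the other tissues. Of these, uros was called (log2 difference 1.72), whereas FECH, CPOX, ALAD, PPOX and UROD were not, FECH and CPOX becoming higher after rescaling. CPOX for example was at 8.91, 7.78 and 8.81 TPM beside 21.9 ± 13.2 TPM in heart.

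Of the transcription factors that drive red cell genes, gata1a was at 145, 86.1 and 40.1 TPM, against at most 30.1 TPM elsewhere. The groups did not overlap and replicate 1 was highest (log2 difference 5.22 ± 0.31). The factors klf1 and TAL1 were also higher than in each tissue, with log2 differences of 4.74 and 4.68. EPOR, the erythropoietin receptor, was at 183, 84.3 and 50.9 TPM against at most 45.1 TPM. Of the membrane genes, epb41b and RHAG were above each tissue, whereas SLC4A1, the anion exchanger of the red cell (256, 171 and 153 TPM), and tfr1a, which imports iron-loaded transferrin (240.0, 119.8 and 54.5 TPM), were above each tissue once heart replicate 2 was left out, which raised the count for the list from 13 to 15. The lower member was the ANK1 gene ENSDARG00000074777, whose highest tissue was brain at 142 ± 6.82 TPM. The other ANK1 gene, ENSDARG00000059093, was higher.

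Thrombocyte genes were also high. Of 15 genes, all tested, 12 were higher, none was lower and 7 were higher than in each tissue, with a median log2 difference of 2.97. After rescaling 12 were higher, and 1 of the 15 would not have passed the filter without spleen. Their sum was 1199, 843 and 803 TPM against at most 317 TPM elsewhere. The gene itga2b, a chain of the fibrinogen receptor and the usual marker of zebrafish thrombocytes, was at 85.5, 67.8 and 118 TPM, with a highest other value of 5.42 TPM. The spleen values stood far above all other libraries, with a log2 difference of 5.86 ± 0.18 from the mean of the tissues and 4.22 from heart.

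The genes gp9 and GP1BB encode parts of the receptor for von Willebrand factor. GP1BB was at 446, 346 and 214 TPM against at most 84.4 TPM, and gp9 at 249, 145 and 90.8 TPM against at most 34.9 TPM. For both the groups did not overlap, and replicate 1 was highest in the original TPM, as for the erythroid genes. Haemoglobin chains and the 7 features together took more of replicate 2 than of replicate 1. This order can therefore depend on the scaling and was not examined after rescaling. The thrombopoietin receptor mpl (28.9, 26.5 and 36.7 TPM against at most 2.38) and itga2b had replicate 3 highest instead. Of 2 THBS1 genes, ENSDARG00000010785 was higher than in each tissue, and the call of ENSDARG00000103775 was lost without spleen replicate 3, where its log2 difference went from 1.28 to 0.78. The enzymes ptgs1 and TBXAS1 were not called, and vwf, which belongs to the endothelial list, was at 3.21, 0.973 and 2.43 TPM beside 131 ± 69.7 TPM in heart.

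**Figure D3:**
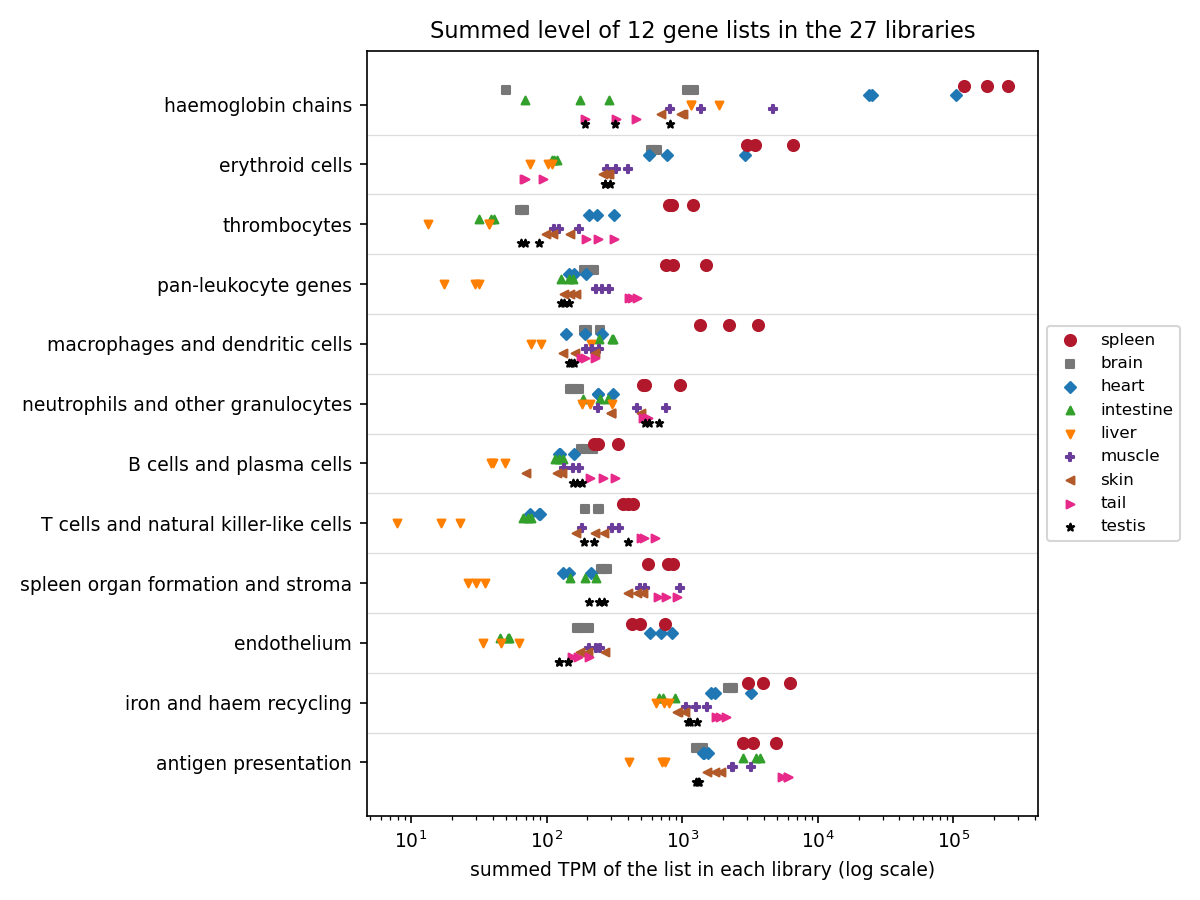
Summed TPM of 12 gene lists on a log axis, with 1 row per list and 1 point per library, coloured by tissue. The macrophage list separates the spleen (1364 to 3633 TPM) from all other libraries (at most 307 TPM) and the erythroid list has heart replicate 2 (2892 TPM) just below the spleen. The granulocyte, B cell, T cell, stroma, endothelial, iron and antigen presentation lists overlap with other tissues.

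Macrophage genes separated the spleen from all other tissues with little overlap. Of 38 macrophage and dendritic cell genes 33 were tested, 24 were higher, 1 was lower and 17 were higher than in each tissue, with a median log2 difference of 2.53. After rescaling 26 were higher and 1 lower. Their sum was 2226, 1364 and 3633 TPM in spleen, against 76.7 to 307 TPM in the others, so that even the lowest spleen library was above 4 times the highest other one. Replicate 3 held the highest spleen value for 21 of the 24, unlike the erythroid genes, which were highest in replicate 1.

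The scavenger receptor gene marco, which binds bacteria and particles, was at 463, 427 and 864 TPM, against a highest other value of 30.7 TPM. The values did not overlap and the log2 difference was 5.81 ± 0.25. The complement genes c1qa, c1qb and c1qc, whose products mark debris and microbes for uptake, rose together, with log2 differences of 4.46, 4.46 and 4.48. In TPM c1qb was at 170.4, 129 and 315, against at most 15.7. The gene havcr1, a receptor for phosphatidylserine on dying cells, was at 107, 64.2 and 152 TPM, with brain the next tissue at 10.1 ± 1.49 TPM. The myeloid transcription factors SPI1, spi1a and IRF8 and the receptor csf1ra were above each tissue too, with log2 differences of 3.24, 2.64, 2.79 and 2.54.

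Several symbols of this list stand for families of near copies, whose reads may be shared between members. Of the MFAP4 genes, ENSDARG00000088745 was at 164, 84.4 and 459.8 TPM and higher than in each tissue. By contrast ENSDARG00000038683, at 0.229, 0.131 and 0.971 TPM beside 32.6 ± 33 TPM in skin, was the lower member of the list, a call lost without spleen replicate 1 or 2 (adjusted p = 0.062 and 0.073 in limma). MPEG1 (ENSDARG00000055290), a pore-forming protein of macrophages, was at 46.3, 34.6 and 76.3 TPM against at most 13.4 TPM. SPIC, the factor of iron-recycling macrophages in mice, was listed at 0 in all 3 spleen libraries, and timd4 was at 0.622, 0.818 and 1.16 TPM beside 53.5 ± 0.523 TPM in brain. The cytokine receptor gene flt3, a dendritic cell marker, was at 1.06, 1.02 and 1.29 TPM and was not called.

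Genes that most leukocytes share were also higher. Of 20, all tested, 18 were higher, 1 was lower and 12 were higher than in each tissue, with a median log2 difference of 2.47. After rescaling 19 were higher and 1 lower. Their sum was 855, 754 and 1490 TPM against at most 464 TPM elsewhere. The gene ptprc, which encodes the CD45 phosphatase of all leukocytes, was at 51.7, 49.4 and 112 TPM against at most 11.1 TPM. Its spleen values lay above all others, as did those of laptm5 (138, 108 and 235 TPM against at most 31.8 TPM). The lower member was MYB, a progenitor factor, at 0.83, 1.27 and 0.469 TPM beside 51.6 ± 1.17 TPM in tail. The calls of CXCR4 (ENSDARG00000057633) and tnfrsf1b, which were near the limit, were each lost without some spleen replicate, with log2 differences down to 0.93 and 0.99.

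Granulocyte genes were higher in part. Of 25 genes 23 were tested, 15 were higher and none lower, 3 were higher than in each tissue, and the median log2 difference was 1.38. After rescaling 17 were higher. The summed list was 535, 516 and 965 TPM in spleen and overlapped with testis at 534 to 680 TPM. The subunits of the oxidase that neutrophils and macrophages share, among them cyba, cybb, NCF1 and NCF4, were called. The neutrophil markers lyz and npsn were not. Lysozyme, lyz, was at 9.19, 5.74 and 7.53 TPM within an other-tissue range of 0 to 252 TPM, and npsn was at 6.29, 3.31 and 3.81 TPM within 0.281 to 85.7 TPM. CXCR4 (ENSDARG00000041959), a chemokine receptor of many leukocytes, was the leading member at 44.3, 141 and 204 TPM. Its replicate 1 value overlapped with the highest other library (50.7 TPM). MMP9 lost its call without replicate 3, where its log2 difference went from 1.08 to 0.76.

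B cell genes rose by smaller amounts and at low levels. Of 23, 19 were tested, 11 were higher and none lower, 5 were higher than in each tissue, and the median log2 difference was 1.36. After rescaling 13 were higher. Of the 19, 3 would not have passed the filter without spleen, cd37 among them. The immunoglobulin heavy chain gene ighm was at 128, 60 and 38.8 TPM, and its lowest spleen value overlapped with the highest other library (44 TPM, with muscle the next tissue). The tetraspanin gene cd37 did not overlap, at 18.7, 18.2 and 9.52 TPM against at most 1.53 TPM (log2 difference 3.52 ± 0.20). Since cd37 passed the filter through the spleen libraries, this separation adds no support. The receptor chains cd79a and cd79b and the factor PAX5 were called higher than the mean of the tissues but not than each. The signalling genes BTK and blnk and the chemokine receptor CXCR5 were higher than in each.

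XBP1, needed for antibody secretion, was at 76.7, 49.1 and 99.3 TPM near the median of the other libraries (91.9 TPM) and was not called. RAG1 was at 0, 0.101 and 0.0548 TPM. Of the 11 called B cell genes, 6 were highest in replicate 1, 1 in replicate 2 and 4 in replicate 3. The summed list, which includes XBP1 and other genes not called, was 337, 224 and 241 TPM, beside 208 to 318 TPM in tail. Within a library, the ratio of the summed B cell list to the summed macrophage list was 0.152, 0.164 and 0.0662, and that of the erythroid to the macrophage list was 2.96, 2.51 and 0.828. Pan-leukocyte genes relative to macrophage genes varied less, with 0.384, 0.553 and 0.410. These ratios do not depend on how the libraries are scaled, and the erythroid and B cell ratios were lowest in replicate 3.

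Genes of T cells and natural killer-like cells split. Of 30, 29 were tested, 10 were higher, 1 was lower and 4 were higher than in each tissue, with a median log2 difference of 0.72. After rescaling 18 were higher and none lower. The summed list was 397, 364 and 437 TPM in spleen, below tail at 499 to 631 TPM. The NK-lysin gene nkl.3, an antimicrobial peptide of cytotoxic lymphocytes, led with 86.3, 52.7 and 218 TPM against at most 5.64 TPM (log2 difference 5.56 ± 0.35). Its groups did not overlap, nor did those of nkl.4, of cd247, a signalling chain of the T cell receptor (149.5, 47 and 38.3 TPM against at most 10.3 TPM), or of il2rga, a shared cytokine receptor chain. Some defining T cell genes were not called. The kinase gene lck was at 2.03, 4.71 and 1.56 TPM, beside a median of 0.954 TPM and a highest value of 3.08 TPM in the other libraries (log2 difference 0.72, limma adjusted p = 0.004). The genes cd8a and cd4-1 stood lower, cd8a at 0.982, 0.279 and 0.59 TPM and cd4-1 at 1.25, 0.754 and 0.62 TPM, with lck alone of the 3 becoming higher after rescaling.

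Replicate 2 was highest for lck, ZAP70 and il2rb. The call of il2rb rested on it, since its log2 difference went from 1.35 to 0.77 without replicate 2. The call of gzmk was lost without replicate 1 (0.92), and that of the lower member bcl11ba without replicate 3 (-0.88).

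Endothelial genes were higher in large part. Of 29, all tested, 18 were higher, none was lower and 5 were higher than in each tissue, with a median log2 difference of 1.63. After rescaling 23 were higher. Those 5 were FLT4, a receptor of venous and lymphatic endothelium, the adhesion gene sele, and MRC1, stab1 and lyve1b, which encode receptors that clear macromolecules from blood and lymph, MRC1 also in macrophages. FLT4 was at 33.2, 28.9 and 58.7 TPM against at most 7.27 TPM. MRC1 was at 24.4, 26.6 and 41.1 TPM against at most 6.62 TPM. For both, all spleen values lay above all others. The summed list was 487, 428 and 751 TPM in spleen, beside 574 to 835 TPM in heart. General endothelial genes were called higher but did not exceed heart. For example kdrl, a VEGF receptor, was at 28.9, 25.3 and 46.9 TPM beside 59.5 ± 9.55 TPM in heart, and cdh5, the endothelial cadherin, at 15.1, 13.5 and 16.7 TPM beside 42.2 ± 6.28 TPM.

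Genes of iron and haem recycling were higher in part. Of 21, all tested, 11 were higher, 4 were lower (beside 15.7% of all genes) and 4 were higher than in each tissue, with a median log2 difference of 1.01. After rescaling 14 were higher and 3 lower. The summed list was 6284, 3059 and 3948 TPM in spleen, and heart replicate 2 reached 3197 TPM. HMOX1, the oxygenase that opens the haem ring, was at 272, 145 and 311 TPM against at most 61.5 TPM, with liver the next tissue at 45.7 ± 13.7 TPM. The groups did not overlap and the log2 difference was 4.46 ± 0.22. The gene blvrb, named as a biliverdin reductase and also in the erythroid list, was at 333, 146 and 185 TPM against at most 110.2 TPM.

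SLC40A1, the iron exporter ferroportin, was at 67.3, 39.7 and 127 TPM against at most 25.5 TPM (log2 difference 2.99 ± 0.24). It was highest in replicate 3, as the macrophage genes were, while blvrb was highest in replicate 1. Ferritin heavy chain fth1a was at 5128, 2444 and 2998 TPM, overlapping with a highest other value of 2682 TPM. The lower members were hamp (hepcidin, the liver hormone that closes ferroportin), FTH1, tfr1b and FLVCR1, a haem exporter. FLVCR1 was at 0.433, 0.308 and 0.325 TPM beside 52.5 ± 6.81 TPM in intestine, but heart (0.194 ± 0.0801 TPM) and liver (0.215 ± 0.0438 TPM) had lower means. Far higher levels of hamp were found in liver (236 ± 45.2 TPM) and intestine (27.5 ± 18.7 TPM). Its spleen values, 0.407, 0.381 and 1.21 TPM, lay near the median of the other libraries (0.455 TPM), and hamp was not called after rescaling. The calls of IREB2 and PCBP2 were lost without replicate 1 (log2 differences 0.98 and 0.70), and that of SLC48A1 (ENSDARG00000026109) without replicate 1 or 3 (0.87 and 0.90).

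Antigen presentation genes were higher than the mean of the tissues without exceeding each of them. Of 22, 21 were tested, 8 were higher, none was lower and none was higher than in each tissue, with a median log2 difference of 0.77, and after rescaling 18 were higher. The invariant chain gene cd74a, a partner of MHC class II, was at 1108, 1126 and 1936 TPM, within the reach of tail at 1710.3 ± 69.1 TPM. MHC class I light chain b2m, at 763, 559 and 879.8 TPM, was not called. Of 27 cell cycle genes, all tested, 1 was called, MCM7, a helicase subunit of DNA replication (48.5, 28.7 and 48.2 TPM), and the median was -0.08. After rescaling 4 of the 27 were higher, when 23.7% of all genes were, and the list median was 0.37 beside 0.24 over all genes. The proliferation marker mki67 was at 1.44, 0.771 and 2.63 TPM. Testis, at 86.3 ± 15.3 TPM, was its highest tissue, and also that of MCM7 (529 ± 66.5 TPM).

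**Figure D4:**
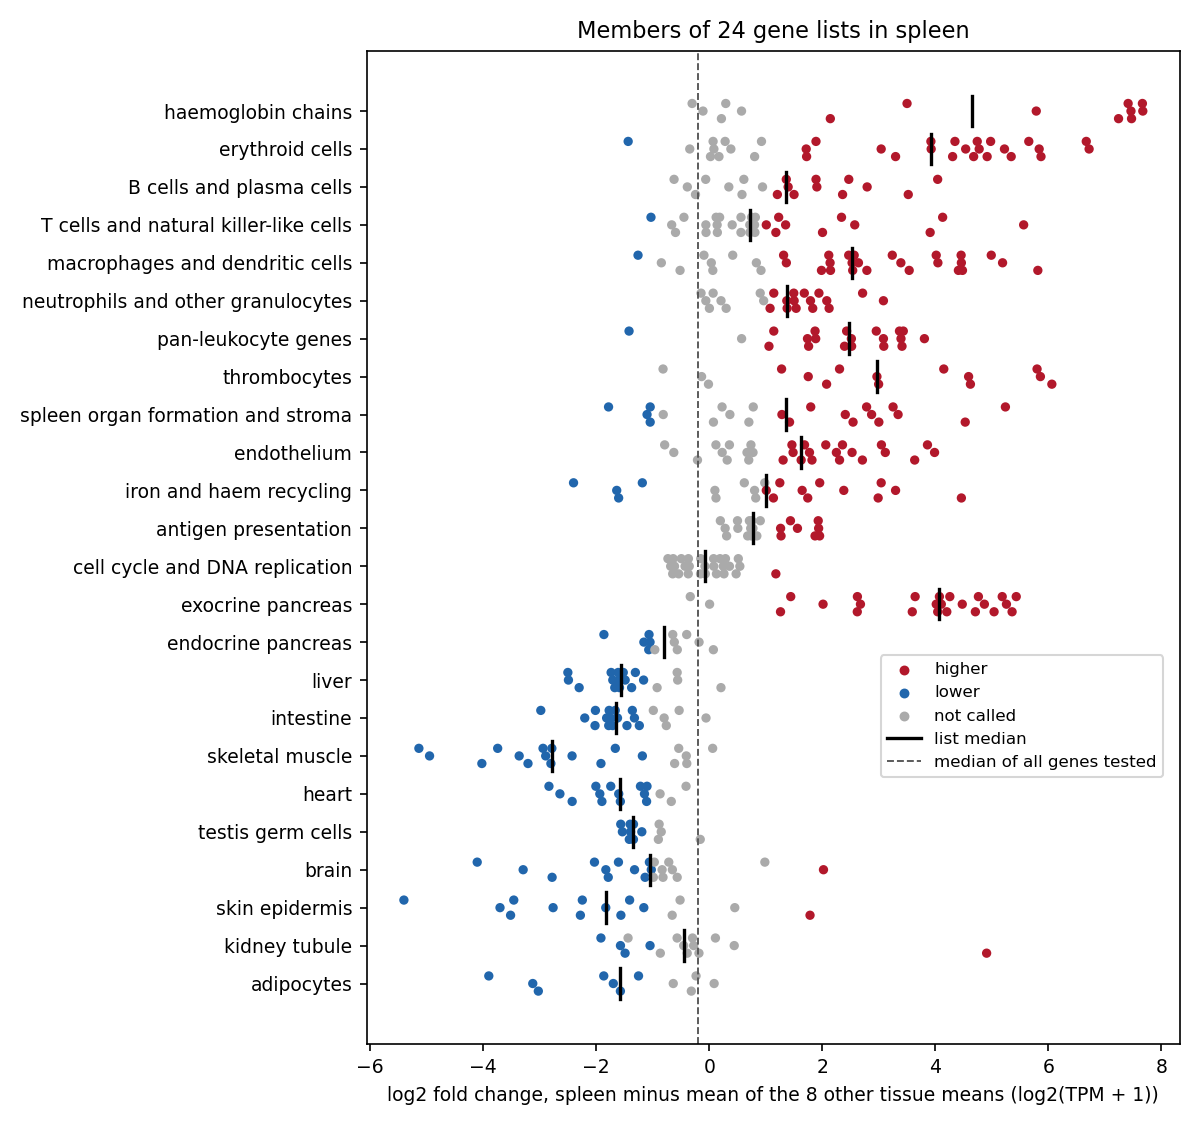
Log2 difference between spleen and the mean of the 8 other tissue means for each tested member of the gene lists, with 1 row per list, 1 point per gene coloured by its call, a bar at the list median and a dashed line at the median of all genes. The medians are highest for haemoglobin chains (4.64), exocrine pancreas (4.07) and erythroid genes (3.92). They run down to -0.08 for cell cycle genes and below -1 for several lists of other organs, beside a median of -0.20 over all genes.

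Pancreatic enzyme genes were the exception among markers of other organs. Of 26 exocrine pancreas genes 25 were tested and 23 were called higher than the mean of the tissues, none of them higher than in each, with a median log2 difference of 4.07, and the count was again 23 after rescaling. Their sum was 38466, 1743 and 8652 TPM in spleen replicates 1, 2 and 3, against 48937 to 86846 TPM in intestine. The exocrine pancreas makes digestive enzymes and in zebrafish is spread along the gut. Apart from intestine, the lists' highest libraries were 1 of testis at 6237 TPM and those of liver at 842 to 3131 TPM.

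The elastase gene CELA1 (ENSDARG00000017314) was at 7596, 373 and 1957 TPM, and trypsin prss1 was at 5128, 236 and 1235 TPM beside 10208 ± 2645 TPM in intestine. For all 23 genes replicate 1 was highest, replicate 2 was lowest and intestine was the highest tissue. As a share of the intestine mean, the median over the 23 was 56.4%, 2.19% and 11.7% in the 3 spleen replicates. Without replicate 1, 19 of the 23 were still called. Among those lost were spink4, PLA2G1B and ctrb.2 (log2 differences of 1.69, 0.42 and 0.46). PTF1A, the factor that defines acinar cells, was listed at 0 in all 3 spleen libraries and reached 1.68 ± 0.857 TPM in intestine. The part of pancreatic RNA in the other spleen results was not tested. No listed exocrine gene is among the 535 genes above each tissue. With intestine the highest tissue for all 23, none could be, so this absence says nothing about pancreatic RNA in the spleen libraries. Erythroid genes were likewise highest in replicate 1.

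**Figure D5:**
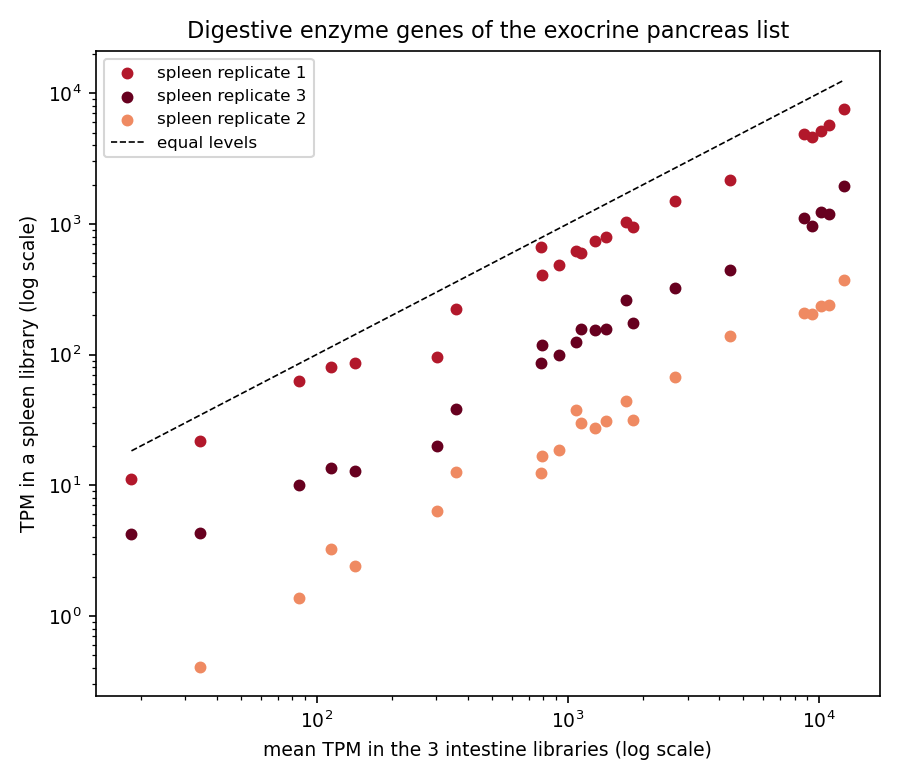
Level of the 23 called exocrine pancreas genes in each spleen replicate (vertical axis, TPM) against their mean in the 3 intestine libraries (horizontal axis, TPM), both on log axes, with 1 point per gene and replicate and a dashed line at equal levels. Replicate 1 lies nearest to the line (median 56.4% of intestine), replicate 3 below it (11.7%) and replicate 2 lowest (2.19%), and the value of 0 of ctrb.2 in replicate 2 is not drawn.

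Most lists of the remaining organs held more lower genes than the 15.7% of all genes, the kidney tubule list being nearest to it. For liver, intestine, skeletal muscle, heart, testis, brain and skin, the mean of the tissues includes the marked organ itself. A lower call there is therefore largely set by that organ and does not show that spleen was below the remaining tissues. In the liver list 14 of 18 tested genes were lower and none higher. Its sum was 250, 348 and 775 TPM in spleen. Brain, heart and testis libraries had 437 to 737 TPM, muscle, skin and tail libraries 1124 to 2735 TPM, and intestine more. The gene fabp10a, a fatty acid carrier of hepatocytes, was at 48, 116 and 329 TPM beside 107906 ± 24333 TPM in liver. Replicate 3 was thus the highest for liver genes, whereas replicate 1 was the highest for pancreatic ones. No gene of the intestine (15 of 20 lower), skeletal muscle (14 of 19), heart (13 of 16), testis germ cell (8 of 12), adipocyte (7 of 11) or endocrine pancreas (5 of 12) lists was higher. The heart list summed to 37.6, 21.2 and 86.3 TPM in spleen, against up to 82685 TPM in heart. In the brain, skin and kidney tubule lists 1 gene each was higher, namely FABP7, pfn1 and SLC20A1, beside 11 of 20, 11 of 15 and 4 of 15 that were lower. After rescaling, when 11.5% of all genes were lower, the lower genes numbered 10 for liver, 13 for intestine, 14 for skeletal muscle, 12 for heart, 8 for testis, 7 for adipocytes, 4 for endocrine pancreas, 9 each for brain and skin and 2 for kidney tubule. The kidney tubule list summed to 309, 243 and 280.2 TPM in spleen, above the median of the other libraries (197 TPM), and the skin list to 1926, 1252 and 2434 TPM, above all brain, heart, liver and testis libraries (at most 1022 TPM). The phosphate carrier gene SLC20A1 stood at 268, 207 and 210.4 TPM and so made up most of the kidney tubule sum. Of the 16 genes of that list, 9 were under 1 TPM in every spleen library.

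Far fewer genes were lower in spleen than in each of the 8 tissues. There were 52 (0.206% of those tested), 15 of which remained after rescaling. The count was sensitive to single libraries, with 79 genes without spleen replicate 1, 27 without replicate 2 and 73 without replicate 3. The 5 lowest with a symbol were led by ARG2, a mitochondrial arginase, at 0.917, 0.516 and 0.856 TPM against 15.8 to 300.0 TPM in the others. All spleen values lay below all others, with a log2 difference of -5.58 ± 0.39. CDO1, which breaks down cysteine, was at 3.23, 1.25 and 6.23 TPM against at least 18 TPM (log2 difference -5.32 ± 0.23). LMO7, a protein of cell junctions, SLC38A4, an amino acid transporter, and si:busm1-57f23.1 followed with log2 differences of -4.75, -4.44 and -4.08. The LMO7 values, 5.23, 2.05 and 3.09 TPM, overlapped with the lowest other library at 4.21 TPM.

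Of the 52, 11 carry symbols of the respiratory chain, out of 129 such genes tested, and 5 of these 11 are genes of the mitochondrial genome. The 11 protein genes of the mitochondrial genome in the files, grouped after this was seen, were all lower, the same 5 of them than in each tissue. Their sum was 12293, 8138 and 17291 TPM in spleen against 22868 to 204806 TPM in the other libraries, with tail and testis nearest and skin highest. MT-CO1, a subunit of the terminal oxidase, was at 3767, 2352 and 4203 TPM and overlapped with the lowest other library (3112 TPM). MT-CYB, a subunit of the cytochrome complex, was at 703, 524 and 933 TPM and did not overlap, the lowest other library having 1302 TPM (log2 difference -2.89 ± 0.13). After rescaling 10 of the 11 were still lower than the mean of the tissues, MT-ND6 being the exception. The sums and gaps above are in the original TPM. The genes removed for rescaling took more of each spleen library than of any other, which lowers these spleen values. In spleen replicate 3 the removed genes held 177075 (haemoglobin chains) and 207566 TPM, against 453 and 72513 TPM in tail replicate 1. In testis replicate 2 they held 807 and 120387 TPM. With these removed, the sum of spleen replicate 3 lies above those of tail replicate 1 and testis replicate 2. The gap between the sums of spleen and those of tail and testis is therefore lost after rescaling. Whether single genes keep their gap was not tested. Of the 52 genes, 15 stayed lower than each tissue after rescaling, and which of the 5 did is not reported here.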

How the data were processed

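Spleen and 8 other adult zebrafish tissues (3 libraries each) were grouped by their tissue label. The authors deposited per-gene estimated counts and TPM for each library. The submitters' processing notes list GRCz11, HISAT2 2.1.0, SAMtools 1.9, cutadapt 1.18 and kallisto 0.43.0, with no role or order. The deposited estimated counts gave library totals and shares, and the deposited TPM values gave all levels. Of 32524 gene IDs 29201 had a symbol in the gene table used, and some symbols are shared by several IDs. Of 489 names in the gene lists, 37 had no match.

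Genes that reached 1 TPM in 3 or more of the 27 libraries entered limma 3.58.1, fitted on log2(TPM + 1) with 1 mean per tissue and a variance trend. The contrast was spleen minus the mean of the 8 tissue means, and 8 pairwise contrasts followed. p-values were Benjamini-Hochberg adjusted over all genes tested. The fits were also run on simulated counts with known changes in spleen, in genes that each held little of the library. Those counts had no shift in composition like that of the spleen libraries, so they cannot show how scaling affects the calls. Alternatives were edgeR 4.0.16 and DESeq2 1.42.0 on rounded estimated counts, other scalings, pseudocounts and filters, and leaving out libraries or tissues. The members and lists were chosen with earlier results of these data known.

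Named genes were the 5 largest shares per spleen replicate, the 10 highest and 5 lowest genes with a symbol in the strict sets, up to 4 called members of each list by spleen level, the first 2 members of the blood, stroma, endothelium and iron lists, and the highest member in spleen of each list of another organ. Further genes were named after their values were seen, to give list members that were not called or that overlapped. The counts of no 2 libraries of a tissue matched within sampling noise (a chi-square of 67.0 to 155 for each degree of freedom in spleen and of at least 6.19 elsewhere), so none was counted as a duplicate. Promoter motifs were not analysed here. Some genes are not reported here.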

Additional observations from a re-analysis of the deposited data

How the results depend on the processing

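The counts of called genes moved with the scaling, the tool and the pseudocount. The 2386 higher and 3963 lower genes became 5970 and 2898 after haemoglobin chains and the 7 features were removed (chosen after seeing the data), 3694 and 3454 without the 7 features alone, and 3461 and 3392 without haemoglobin alone. Higher genes were then 67.3%, 51.7% and 50.5% of the calls, against 37.6% at first, 48.3% with quantile normalization and 47.6% with edgeR. edgeR called 3637 higher and 4012 lower genes, and DESeq2 3148 and 5593. A pseudocount of 0.1 gave 3705 and 5986 and one of 0.01 gave 3603 and 4742. The genes above each tissue rose from 535 to 956 after both removals. The count of 52 genes below each tissue became 15 after both removals, 27 after either one, 194 with DESeq2, 146 with edgeR, 120 and 145 with pseudocounts of 0.1 and 0.01, and 91, 99 and 136 when heart, liver or tail was left out of the comparison. These sets differ in their genes, since 32 of the 52 were among those of DESeq2 and 25 among those of edgeR. Under all 8 scalings and tools, 7 of the 52 and 378 of the 535 were kept. Leaving out 1 library at a time gave 2028 to 3000 higher and 3423 to 4386 lower genes, 508 to 624 above and 27 to 79 below each tissue, each extreme without a spleen library.

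The 10 largest genes took 34.6%, 57.1% and 39.7% of TPM in spleen replicates 1, 2 and 3 in place of 17.9%, 40.6% and 23.1% of counts. Without haemoglobin in the total the shares were 11.02%, 39.7% and 19.9%, and without the 7 features 14.8%, 13.4% and 13.2%, where the choice of the 7 by their level in replicate 2 fixes the drop in that replicate. Of 132 named genes, 100 kept their call and direction under all 48 alternatives and none reversed. Many were named for their levels or differences in these data, so this says little of other genes. Of all 2386 higher and 3963 lower genes, 69.3% and 44.9% kept their call under every scaling and tool and without each spleen replicate. None of the 19 lists with a median of at least 1 in size changed sign, which that bound makes likely. The smaller median of the cell cycle list did change sign, ranging from -0.34 to 0.59.

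Adding the replicate number to the fit (a replicate block) gave 2394 higher and 3979 lower genes, with 542 above and 54 below each tissue. Same-numbered samples shared deviations in part (r from -0.05 to 0.32, 54 of 108 pairs over 0.1), and 27 of 27 samples correlated best with their own number. The labels do not say what a number marks, so the main fit has no pairing. What same-numbered samples share was not tested. Spleen replicate 2, with 5100481 counts, limits what can be said of low genes.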

Other observations

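Thyroid genes appeared in 1 spleen library. This list was added after the values were seen. TG, thyroglobulin, was at 594, 0.216 and 0.228 TPM in spleen replicates 1, 2 and 3, beside 8.22 ± 2.06 TPM in testis, the highest other tissue. The iodide carrier SLC5A5 was at 11.75, 0 and 0.0544 TPM, PAX8 at 9.49, 0 and 0.217 TPM, TSHR at 3.42, 0 and 0 TPM and foxe1 at 2.8, 0 and 0 TPM. Their highest other tissues were brain for SLC5A5 (mean 8.45 TPM), testis for PAX8 (4.15 TPM) and TSHR (3.54 TPM) and tail for foxe1 (1.05 TPM). The remaining members IYD and duox, at 1.19 and 2.21 TPM in replicate 1, lay below intestine (2.51 TPM) and testis (3.2 TPM). The name tpo had no match. The summed list was 625, 0.368 and 0.985 TPM. TG passed the test against the mean of the tissues (log2 difference 2.75 ± 0.96, limma adjusted p = 0.017), but the call was lost without replicate 1. Replicate 1 was also the spleen library with the most pancreatic enzyme RNA, and the part of these genes in its other values was not tested.

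Another 2 genes stood out by size and were picked after their values were seen. The complement gene c6.2 was at 493, 324 and 1036 TPM in spleen against at most 73.6 TPM elsewhere, with a log2 difference of 5.46 ± 0.28. The cytochrome P450 gene cyp1c2 was at 89.3, 66.9 and 118 TPM against at most 6.18 TPM, with a log2 difference of 5.39 ± 0.16. For both, all 3 spleen values lay above all 24 others, and replicate 3 was highest.

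Endocrine pancreas genes did not follow the exocrine ones. Their summed level was 5.91, 4.91 and 2.63 TPM in the 3 spleen replicates, and ins, the insulin gene, was at 0, 3.38 and 0.391 TPM, so the replicate with the most exocrine enzyme RNA had ins listed at 0.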
